A study of Mus musculus with 63 samples.

Results

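The 32 genes described here build cholesterol in the cell, control that synthesis, move and store the product, and pass it out of the cell. They were named from known roles rather than by a rule on measured values, with earlier results of these data known, and all 32 had a row among the 56980 Ensembl genes of the count tables. Their levels were measured by RNA-seq in 4 populations of cortical cells sorted from female C57BL/6J mice that were 12 weeks old at the start, 5 weeks after a full-thickness thermal burn of about 7 to 8% of the body surface or a sham procedure without the burn. All mice, sham included, carried an AAV with eGFP under the CaMKII promoter and an AAV with mRuby2 under the mDlx enhancer, injected in the motor cortex.

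The labels name the populations excitatory neurons (GFP), inhibitory neurons (mRuby), astrocytes (ACSA) and microglia (CD11b). CaMKII positive and CaMKII-mDlx double-positive cells came from the motor cortex, and ACSA2-positive and CD11b-positive cells from cortex caudal to it, so cell type and region cannot be told apart between these pairs. Of 63 libraries 58 were used, from 17 mice in 3 sequencing batches: 4 burn and 6 sham mice for CaMKII positive cells, 9 and 7 for double-positive cells, 9 and 8 for ACSA2-positive cells, and 8 and 7 for CD11b-positive cells. Left out were the double-positive library from mouse 8, which was very small, and all 4 libraries from mouse 3, an animal with ulcerated skin.

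The libraries held 13346143 to 134703744 counts. Levels are given as CPM, a gene's count relative to its library's total, for which 3 counts, the most that a count of 0 allows, were worth 0.0223 to 0.225 CPM depending on the library. Every member had counts in every library except Fdps, which was at 0 in 6 of 15 CD11b-positive and 3 of 16 double-positive libraries. Summed over 6 astrocyte markers (Slc1a2, Aldoc, Gja1, Aqp4, Slc1a3 and Aldh1l1), the level was 33155 to 47487 CPM in ACSA2-positive, 12255 to 23403 CPM in CaMKII positive, 463 to 1358 CPM in double-positive and 197 to 343 CPM in CD11b-positive libraries. Summed over 5 microglia markers (Csf1r, P2ry12, Tmem119, Cx3cr1 and Trem2), the ranges were 5.30 to 83.1, 220 to 1186, 10173 to 20533 and 12984 to 21572 CPM in the same order. The 4 markers of all neurons (Snap25, Rbfox3, Syt1 and Tubb3) summed to 15.6 to 113 CPM in CaMKII positive and 4.82 to 25.6 CPM in double-positive libraries. The data thus fit the labels of the ACSA2-positive and CD11b-positive populations and go against the neuronal labels, so the other populations are called by their sorting marks. In such bulk libraries, fewer cells of a type and less RNA per cell cannot be told apart.

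Cells make cholesterol from acetyl-CoA, first through mevalonate to farnesyl diphosphate, then through squalene and lanosterol to the sterols. The transcription factor SREBP-2, held in the endoplasmic reticulum with SCAP and the INSIG proteins when sterol is plentiful, switches the pathway on, and the liver X receptors (LXR) switch on export through ABCA1 and ABCG1 when sterol accumulates. In the adult brain, where blood lipoproteins do not enter, astrocytes are known as a main site of synthesis, and microglia take up sterol from debris and pass it on.

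ACSA2-positive astrocytes were first compared with CD11b-positive microglia. Nearly the whole synthetic pathway was higher in astrocytes, whereas the transporter Abcg1 and the lysosomal carrier Npc2 were higher in microglia. With calls made where p.adj was 0.05 or less and the log2FC was 1 or more in size, 23 of 32 members were higher in astrocytes, against 30.4% of the 33150 genes tested, and 2 were lower, against 20.8% of the genes. The median log2FC of the members was 3.11 and that of all genes tested 0.24. Tests are edgeR quasi-likelihood tests, log2FC is given with its SE, and p.adj is adjusted over all genes tested.

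Sqle, the squalene epoxidase that starts sterol ring formation, had a lowest, median and highest level of 171, 219 and 311 CPM in the 17 astrocyte libraries and of 0.253, 2.36 and 3.36 CPM in the 15 microglia libraries. The highest microglia library thus stayed far below the lowest astrocyte library. The log2FC was 6.88 ± 0.23 (p.adj = 3.14e-33). Msmo1, the sterol C4-methyl oxidase, ran from 556 over 693 to 1032 CPM in astrocytes and from 11.7 over 16.2 to 22.6 CPM in microglia (log2FC 5.48 ± 0.14, p.adj = 1.06e-38). Fdft1, the squalene synthase, ran from 197 over 242 to 306 CPM in astrocytes and from 4.11 over 7.48 to 14.9 CPM in microglia (log2FC 5.19 ± 0.14, p.adj = 7.44e-38). For neither gene did the libraries overlap. Of the length of Fdft1, 18.3% lies over exons of Ctsb on the opposite strand, and since the sources used here do not say whether counting used the strand, reads of the pair may not have been told apart.

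**Figure D1:**
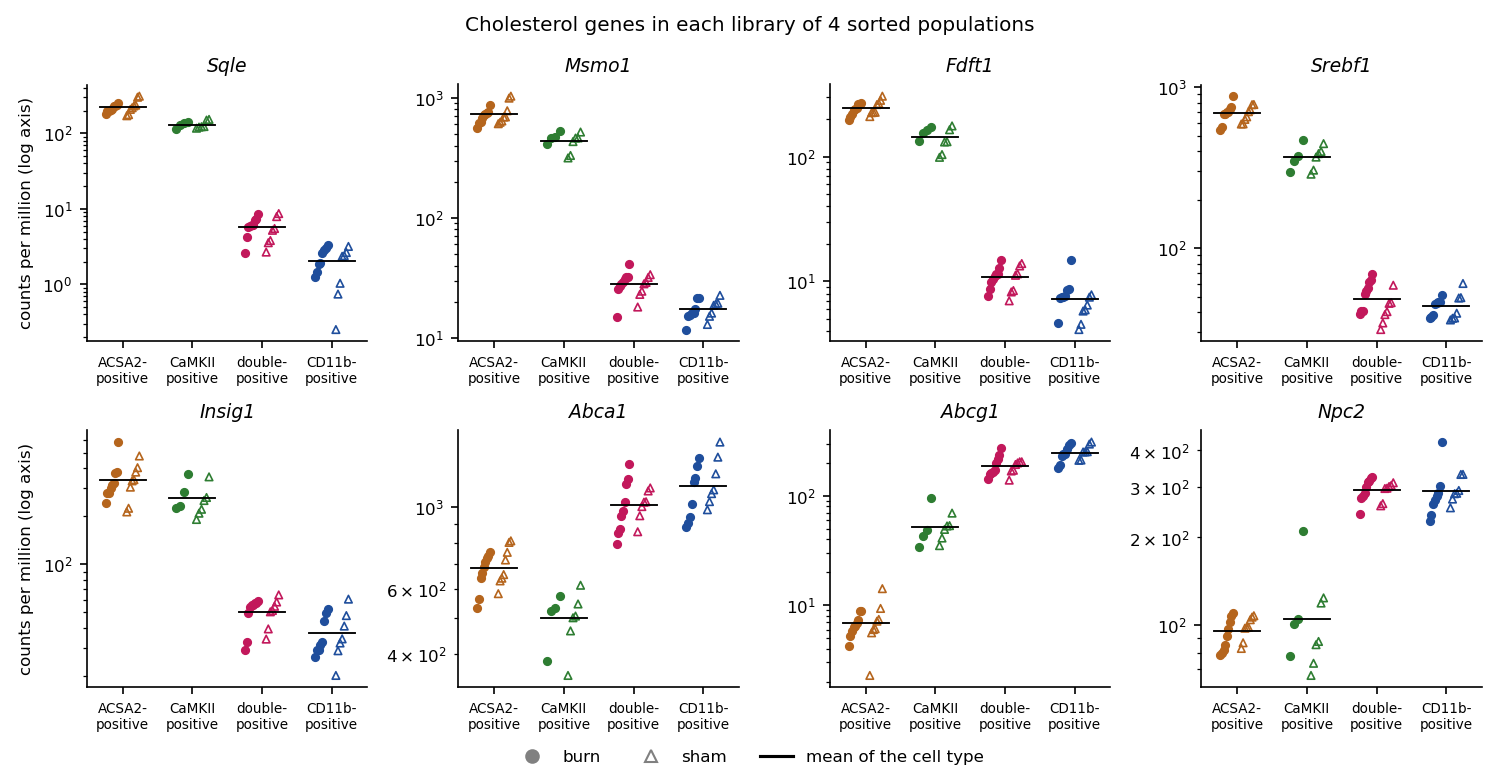
Level of 8 of the genes (CPM, log axis) in each library of the ACSA2-positive, CaMKII positive, double-positive and CD11b-positive cells, with filled circles for burn mice, open triangles for sham mice and a line at the mean of each cell type. Sqle, Msmo1, Fdft1, Srebf1 and Insig1 are highest in ACSA2-positive libraries, whereas Abcg1, Npc2 and Abca1 are higher in CD11b-positive than in ACSA2-positive libraries.

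Of the 8 mevalonate and isoprenoid genes, 7 were called higher in astrocytes. After Idi1, the isopentenyl diphosphate isomerase (log2FC 4.98 ± 0.14), came Fdps, the farnesyl diphosphate synthase (4.46 ± 0.61), Mvd (4.04 ± 0.18), Hmgcs1 (3.90 ± 0.10), Acat2 (2.98 ± 0.12), Mvk and Pmvk (1.99 ± 0.14). The eighth, Ggps1, which makes geranylgeranyl diphosphate off the path to sterols, had similar levels of 60.9 ± 7.93 CPM in astrocytes (SD, n = 17) and 59.2 ± 5.19 CPM in microglia (SD, n = 15), with a log2FC of 0.10 ± 0.06 (p.adj = 0.17) and a 95% interval of -0.03 to 0.23. Summed over the 8 genes, the level was 1039 ± 154 CPM in astrocytes and 132 ± 9.05 CPM in microglia (SD). Fdps had a low count even in astrocytes, at 5.09 ± 3.52 CPM. Of its length, 26.7% overlaps Gm43738 on the same strand, and 26.2% of its 50-base windows also occur in other genes. Whether reads were lost to these genes was not tested, so the low count need not mean a rare transcript. For Acat2, 39.1% of its 50-base windows also occur in Acat3 or Tcp1, and for Idi1, 25.3% occur in other genes, so their own shares of the counts are uncertain.

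Of the 11 genes from squalene to cholesterol, 10 were called higher in astrocytes. Besides Sqle, Msmo1 and Fdft1 these were Hsd17b7 (log2FC 4.19 ± 0.18), Dhcr7, the last reductase of the Kandutsch-Russell branch (4.07 ± 0.13), Sc5d (3.63 ± 0.11), the lanosterol demethylase Cyp51 (3.61 ± 0.13), Tm7sf2 (3.28 ± 0.14), Nsdhl (3.13 ± 0.11) and the lanosterol synthase Lss (3.10 ± 0.11). The exception was Ebp, the sterol isomerase. It lay between 6.21 and 15.9 CPM in astrocytes and between 14.9 and 27.9 CPM in microglia, with overlapping ranges and a log2FC of -0.89 ± 0.13 (p.adj = 5.16e-08), short of the fold threshold. The summed level of the 11 genes was 2069 ± 276 CPM in astrocytes (1741 to 2641 CPM) and 123 ± 5.66 CPM in microglia (114 to 134 CPM).

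Of the 5 genes of SREBP control, both transcription factors and Insig1, itself an SREBP target, were called higher in astrocytes. Srebf1 was at 687 ± 86.5 CPM in astrocytes and 43.6 ± 7.07 CPM in microglia (log2FC 4.04 ± 0.10), Srebf2 at 571 ± 65.9 and 57.4 ± 6.16 CPM (3.40 ± 0.09) and Insig1 at 338 ± 92.4 and 37.3 ± 11.3 CPM (3.30 ± 0.15). The escort Scap (log2FC 0.90 ± 0.08) and the second anchor Insig2 (0.32 ± 0.09, p.adj = 0.0026) passed the p.adj without the fold. Insig1 was thus several times as high in astrocytes as in microglia, and Insig2 was at 29.7 ± 3.18 and 24.8 ± 4.03 CPM with overlapping libraries.

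The genes of trafficking and storage were split. Stard4, a cytosolic sterol carrier, was higher in astrocytes (log2FC 2.96 ± 0.16), as was Soat1, which esterifies cholesterol for storage (1.76 ± 0.07). The lysosomal pair went apart. Npc2, the soluble carrier of the lysosome lumen, ran from 78.7 over 97.1 to 110 CPM in astrocytes and from 228 over 283 to 428 CPM in microglia, without overlap (log2FC -1.52 ± 0.11, p.adj = 3.59e-19). Its membrane partner Npc1 was at 388 ± 46.7 CPM in astrocytes and 267 ± 26.8 CPM in microglia, with overlapping libraries and a log2FC of 0.60 ± 0.09 (p.adj = 3.22e-08).

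Of the 4 LXR and export genes, Abcg1 and Abca1 were higher in microglia. Abcg1 ran from 2.28 over 6.39 to 14.2 CPM in astrocytes and from 178 over 251 to 310 CPM in microglia, so that every microglia library was above every astrocyte library (log2FC -5.08 ± 0.18, p.adj = 1.08e-32). Abca1 lay between 532 and 810 CPM in astrocytes and between 883 and 1503 CPM in microglia, also without overlap, with a log2FC of -0.67 ± 0.08 (p.adj = 2.09e-10) that is short of the fold threshold. The receptors went apart. Nr1h3 (LXR alpha) was called higher in astrocytes, at 9.35 ± 2.18 against 1.31 ± 0.654 CPM (log2FC 2.94 ± 0.24), whereas Nr1h2 (LXR beta) was at 45.0 ± 6.58 against 70.9 ± 5.78 CPM (-0.58 ± 0.06, p.adj = 2.02e-12).

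**Figure D2:**
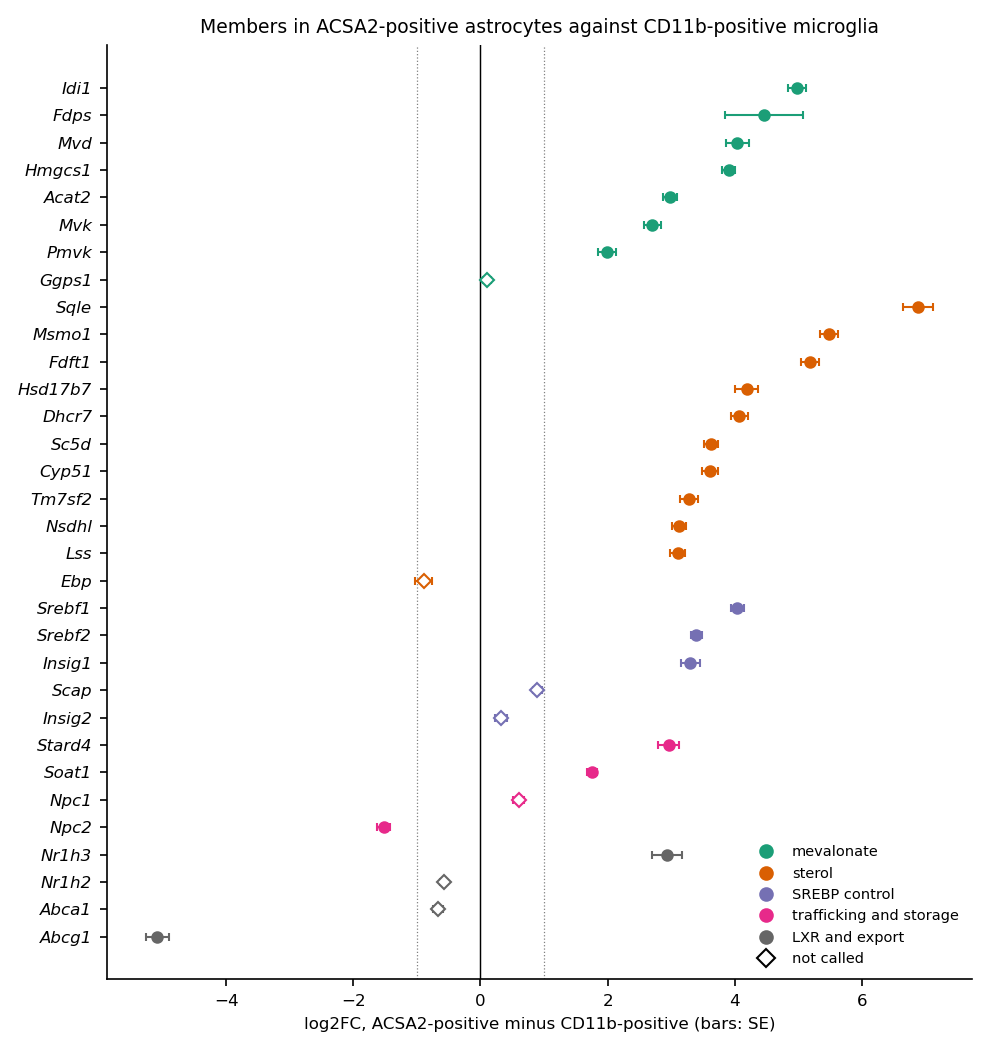
log2FC of all 32 genes in ACSA2-positive astrocytes minus CD11b-positive microglia, with bars for the SE, colours for the role of the gene and open diamonds for genes that were not called. Synthesis genes lie to the right of the fold threshold except Ggps1 and Ebp, and Abcg1 and Npc2 lie to the left of it.

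Without the fold threshold, 26 members passed the p.adj as higher in astrocytes, against 37.5% of all genes, and 5 as lower, against 27.8%. Ggps1 alone passed in neither direction. The CPM of all libraries did not overlap for 24 members that were higher in astrocytes, against 12.5% of genes, and for 3 that were lower (Abcg1, Npc2 and Abca1), against 10.9%. Per kilobase of exon, the highest members in astrocytes were Srebf1 at 122, Hmgcs1 at 119, Msmo1 at 118 and Insig1 at 109 CPM per kilobase. In microglia they were Abca1 at 110, Npc2 at 53.2, Abcg1 at 34.0 and Npc1 at 23.6 CPM per kilobase. The order of the genes within a cell type was thus led by synthesis and its control in astrocytes, and by export and lysosomal transport in microglia.

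Promoters of 5 members are shown to place both sides of this contrast next to each other: Hmgcs1, Msmo1 and Idi1, which were high in astrocytes, and Npc2 and Abca1, which were high in microglia. Each is the 250 bases before the start site in RefSeq (GRCm38.p6), written from 5′ to 3′ on the strand of the gene. Capitals mark the CCAAT box on either strand (CCAAT or ATTGG), bound by NF-Y, a common partner of SREBP, and the letters TCACNCCAC of a sterol regulatory element on either strand. No marked match overlaps another in these promoters.
Hmgcs1 (chr13:119690101-119690350, plus strand): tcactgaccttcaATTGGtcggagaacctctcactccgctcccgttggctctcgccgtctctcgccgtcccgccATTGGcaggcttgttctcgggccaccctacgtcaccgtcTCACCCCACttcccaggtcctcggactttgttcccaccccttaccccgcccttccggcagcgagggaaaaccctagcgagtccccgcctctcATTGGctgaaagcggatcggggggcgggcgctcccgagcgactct
Msmo1 (chr8:64733579-64733828, minus strand): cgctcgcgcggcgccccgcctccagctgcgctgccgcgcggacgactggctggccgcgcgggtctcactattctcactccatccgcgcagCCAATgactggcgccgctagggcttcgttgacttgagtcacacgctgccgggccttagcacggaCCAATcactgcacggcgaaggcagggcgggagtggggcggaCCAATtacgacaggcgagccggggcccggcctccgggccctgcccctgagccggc
Idi1 (chr13:8885356-8885605, plus strand): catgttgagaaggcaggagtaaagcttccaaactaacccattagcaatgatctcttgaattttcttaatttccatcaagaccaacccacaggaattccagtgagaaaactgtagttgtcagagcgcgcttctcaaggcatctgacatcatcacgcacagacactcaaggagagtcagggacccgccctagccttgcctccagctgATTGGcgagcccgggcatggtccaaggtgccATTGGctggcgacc
Npc2 (chr12:84773113-84773362, minus strand): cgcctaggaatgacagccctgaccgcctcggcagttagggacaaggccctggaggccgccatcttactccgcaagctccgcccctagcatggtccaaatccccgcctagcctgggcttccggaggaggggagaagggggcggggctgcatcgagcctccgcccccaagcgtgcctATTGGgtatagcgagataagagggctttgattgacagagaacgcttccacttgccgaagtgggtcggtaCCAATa
Abca1 (chr4:53159896-53160145, minus strand): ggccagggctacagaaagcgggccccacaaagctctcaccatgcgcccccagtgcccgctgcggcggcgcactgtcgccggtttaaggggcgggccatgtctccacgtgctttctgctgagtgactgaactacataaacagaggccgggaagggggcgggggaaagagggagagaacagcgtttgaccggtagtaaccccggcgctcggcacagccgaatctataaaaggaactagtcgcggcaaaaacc

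Of the 32 members 26 were matched in the RefSeq promoters, and Fdps, Sqle, Fdft1, Npc1, Stard4 and Abcg1 were not. A CCAAT box lay in at least 1 promoter of 21 of the 26 members and of 37.5% of all 27025 genes. Among the matched synthesis genes it was in 15 of 16, Acat2 being the exception, and among the other matched members in 6 of 10, where Abca1, Scap, Nr1h2 and Nr1h3 had none. The GC box GGGCGG, on either strand, was in 21 of 26 members and 35.4% of genes. The E-box CACGTG was in 6 of 26 members and 6.86% of genes. TCACNCCAC was in Hmgcs1 alone, against 1.22% of genes. Ebp, which was not higher in astrocytes, had 2 CCAAT boxes in this window, as did Npc2.

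CaMKII positive libraries were compared with ACSA2-positive astrocytes next. The astrocyte libraries are the same ones as in the contrast above, so the values of both contrasts share their spread. Within a mouse, 24 of 32 members were on average at 53.0 to 84.6% of their astrocyte level in the CaMKII positive libraries, and Abcg1 was higher. In all, 1 of 32 members was called higher, against 12.4% of 33150 genes, and 3 were called lower, against 3.89% of genes. By sign, 28 of 32 members were lower, with a median log2FC of -0.72 against -0.05 for all genes. Scaling by library size alone moved the median of all genes to 0.12, with 25 members lower, a member median of -0.52 and Abcg1 as the sole call.

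Abcg1 ran from 34.2 over 48.8 to 95.9 CPM in the 10 CaMKII positive libraries, above the 2.28 to 14.2 CPM of astrocytes in every library (log2FC 2.75 ± 0.17, p.adj = 1.3e-19). Tm7sf2, a sterol C14-reductase, ran from 14.3 over 33.3 to 54.5 CPM in CaMKII positive libraries and from 43.3 over 59.0 to 74.5 CPM in astrocytes, with overlap (log2FC -1.06 ± 0.15, p.adj = 9.13e-08). Srebf1 ran from 288 over 370 to 469 CPM against 544 over 696 to 878 CPM (-1.06 ± 0.11, p.adj = 3.3e-12). Soat1 ran from 175 over 261 to 330 CPM against 377 over 467 to 524 CPM (-1.01 ± 0.08, p.adj = 3.1e-15), so that neither Srebf1 nor Soat1 overlapped. All 3 lay near the fold threshold. Without mouse 8 none of them was called and without mouse 17 only Srebf1 was, so the number of calls fell from 4 to 1 and 2. Their log2FC kept its sign and its p.adj stayed below 0.05.

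Without the fold threshold, 23 members passed the p.adj as lower, against 13.4% of genes, and 3 as higher, against 16.8%. The lower ones included 6 of 8 mevalonate genes, 10 of 11 sterol genes, 4 of 5 genes of SREBP control, both Npc1 and Soat1, and Abca1. Besides Abcg1, the higher ones were Stard4 (log2FC 0.58 ± 0.17, p.adj = 0.0049) and Nr1h2 (0.21 ± 0.07, p.adj = 0.015). Stard4 had its highest level of the 4 populations here, at 44.0 to 90.2 CPM against 24.9 to 55.4 CPM in astrocytes, and was higher in the CaMKII positive library of all 10 mice with both libraries. Ggps1, Fdps, Ebp, Insig2, Npc2 and Nr1h3 passed in neither direction. The libraries of 7 members did not overlap in the lower direction (1.25% of genes), and those of Abcg1 in the higher (4.56% of genes).

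In these 10 mice, the CaMKII positive level was 53.0 ± 10.0% of the astrocyte level for Srebf1, 53.1 ± 21.1% for Tm7sf2, 55.7 ± 12.2% for Soat1, 57.3 ± 13.4% for Fdft1 and 58.8 ± 11.0% for Sqle (SD over mice). It was 64.1 ± 9.72% for Srebf2, 69.0 ± 14.3% for Hmgcs1 and 73.0 ± 12.1% for Abca1. The astrocyte markers moved with them. All 6 were lower in the CaMKII positive libraries, at 45.7 ± 11.7% (Slc1a3) to 54.3 ± 17.3% (Aldh1l1) of the astrocyte level. The summed endothelial markers were at 2790 to 8080 CPM against 111 to 1047 CPM in astrocytes, and the summed microglia markers at 220 to 1186 against 5.30 to 83.1 CPM. The part of these other cells in the levels of the members was not tested. Abcg1, at 672 ± 194% of its astrocyte level, and Stard4, at 172 ± 37.9%, were above it in 10 of 10 mice.

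**Figure D3:**
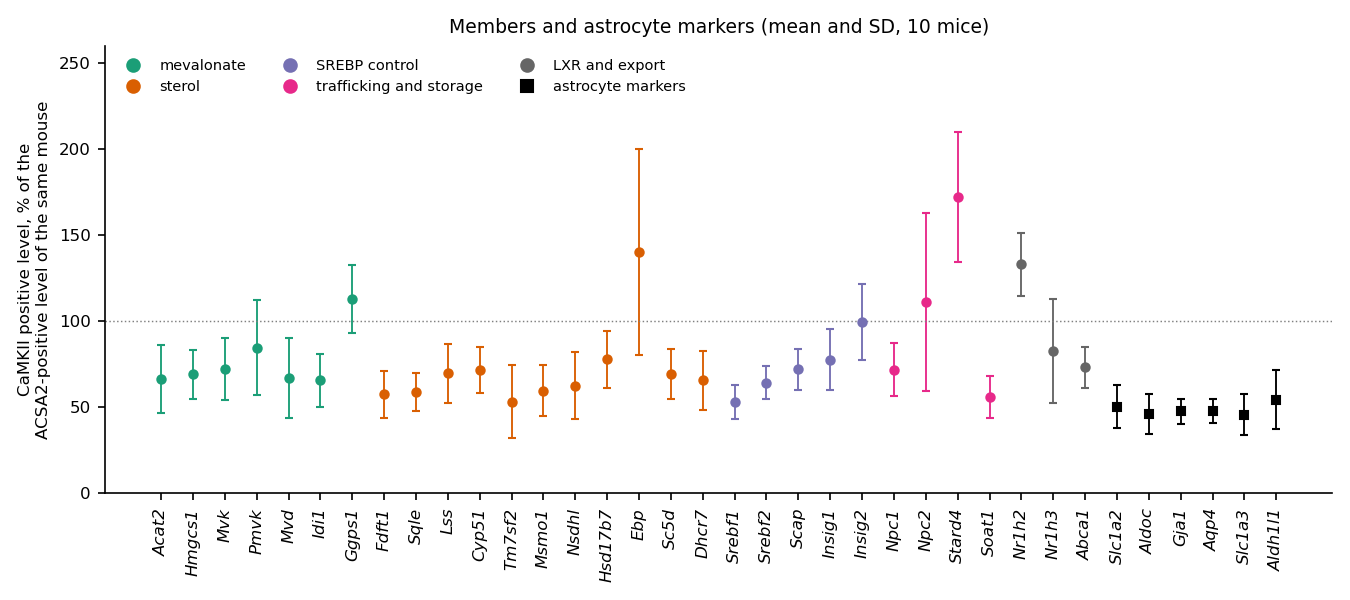
Level in the CaMKII positive library as a percentage of the level in the ACSA2-positive library of the same mouse, as mean and SD over 10 mice, for 30 of the genes by role and for 6 astrocyte markers. Abcg1, at 672 ± 194%, and Fdps, at 126 ± 106%, are left out for scale. All synthesis genes shown but Ggps1 and Ebp lie between 53.1 and 84.6%, near or above the astrocyte markers at 45.7 to 54.3%, and Stard4 lies well above 100%.

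Double-positive libraries were compared with CD11b-positive microglia, whose libraries are again those of the first contrast. Of the members Sqle alone was called, as higher in double-positive libraries, against 5.57% of 33150 genes called higher and 1.25% called lower. The median log2FC of the members was 0.18 and that of all genes 0.15. Sqle ran from 2.58 over 5.85 to 8.68 CPM in the 16 double-positive libraries and from 0.253 over 2.36 to 3.36 CPM in microglia, with some overlap (log2FC 1.54 ± 0.20, p.adj = 4.48e-08). No member was free of overlap between the populations, as against 0.208% of genes higher and 0.0332% lower.

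Without the fold threshold, 7 members passed the p.adj as higher, against 7.54% of genes: besides Sqle these were Msmo1 (log2FC 0.71 ± 0.12), Fdft1 (0.62 ± 0.12), Mvd (0.55 ± 0.17), Insig1 (0.49 ± 0.14), Idi1 (0.45 ± 0.13) and Acat2 (0.45 ± 0.11). Npc1 passed as lower, against 2.15% of genes (-0.27 ± 0.09, p.adj = 0.047), and no longer did so with mouse as a replicate block (p.adj = 0.091). The export genes Abca1 and Abcg1 did not pass. Abca1 was at 1016 ± 141 CPM in double-positive and 1140 ± 186 CPM in microglia libraries (log2FC -0.17 ± 0.08, p.adj = 0.21), and Abcg1 at 188 ± 34.8 and 248 ± 40.4 CPM (-0.41 ± 0.15, p.adj = 0.088). Within a mouse, the double-positive library was above the microglia library in 1 of 14 mice for Abca1 and in 0 of 14 for Abcg1. The carrier Npc2, at 292 ± 23.8 and 289 ± 47.7 CPM, did not pass either and was above in 10 of 14.

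In the 14 mice with all 3 libraries, the double-positive level minus the microglia level was set against the astrocyte level. The 7 genes above were picked as higher in these same libraries, so the sign of their values is a description. The difference came to 1.62 ± 1.00% of the astrocyte level for Sqle, 1.40 ± 0.887% for Msmo1, 1.35 ± 1.24% for Fdft1 and 1.14 ± 1.63% for Idi1 (SD over mice). Sqle and Msmo1 were above microglia in 13 of 14 mice, and Fdft1 and Idi1 in 12. The difference was 2.96 ± 3.68% for Mvd, 5.14 ± 3.80% for Acat2 and 5.48 ± 5.90% for Insig1, with a wide spread between mice. Over all 23 members called higher in astrocytes than in microglia, the mean difference ran from -0.60% (Lss) to 7.09% (Nr1h3) with a median of 1.40%, and was above 0 for 21 of them. By the test, the log2FC between double-positive and microglia libraries was positive for 24 of 32 members and 63.9% of all 33150 genes. Lss at -0.60 ± 3.43% and Srebf2 at -0.58 ± 2.24% were below 0, each with the double-positive library higher in 5 of 14 mice. Srebf1 was at 0.48 ± 1.70% and Sc5d at 0.66 ± 2.25%, with the double-positive library higher in 10 and 7 of 14 mice. Hmgcs1 was at 1.31 ± 1.62% and Dhcr7 at 1.29 ± 1.76%, higher in 11 and 12 of 14. These SDs are the spread between mice, not the error of the mean. The 6 astrocyte markers, also higher in double-positive libraries, gave 1.42 ± 0.707% (Slc1a2) to 1.80 ± 0.716% (Slc1a3). Their part in the levels of Sqle and the other synthesis genes was not tested.

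**Figure D4:**
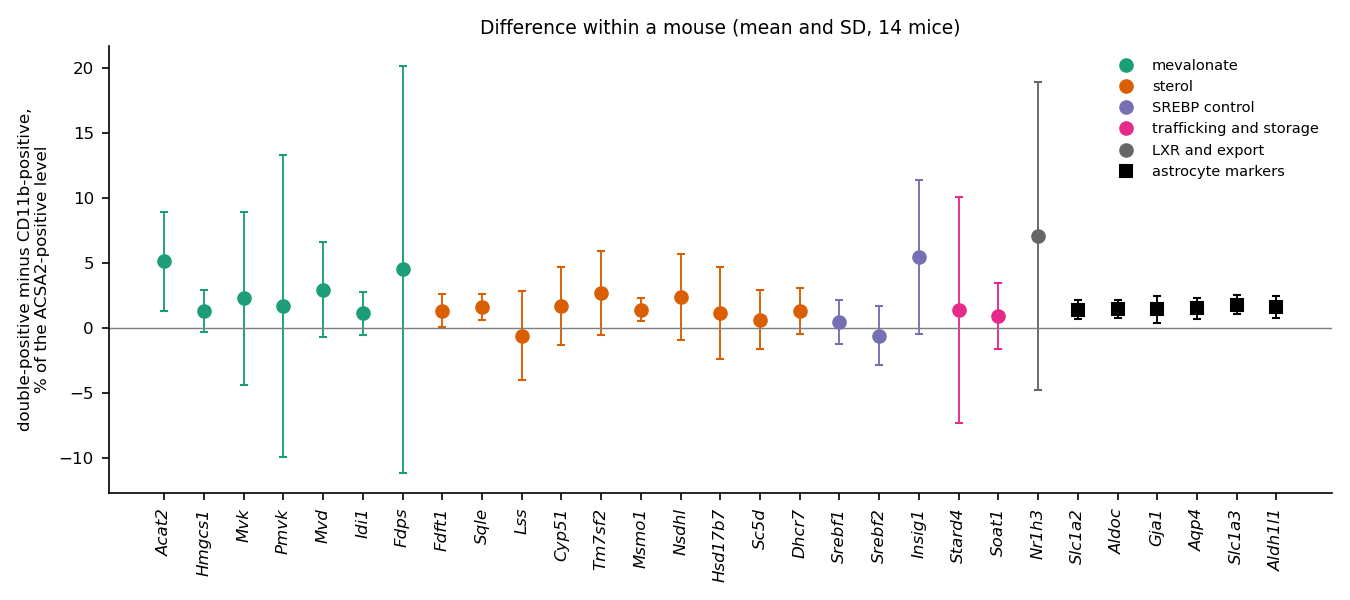
Double-positive level minus CD11b-positive level, as a percentage of the ACSA2-positive level of the same mouse (mean and SD over 14 mice), for the 23 genes called higher in astrocytes than in microglia, coloured by role, and for 6 astrocyte markers. The means run from -0.60% (Lss) to 7.09% (Nr1h3), and the markers lie at 1.42 to 1.80%. The SD is the spread between mice, not the error of the mean.

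Burn was compared with sham within each population, the question the study was designed for. No member was called in any of the 4, and 0.00% of genes were called in each, of 27930 genes tested in astrocytes, 28107 in CaMKII positive, 26707 in double-positive and 26079 in microglia libraries. At an unadjusted p under 0.05 the edgeR test had 0, 0, 1 and 0 members and 2984, 1096, 1872 and 2036 genes in the same order. DESeq2 called 27, 3, 2 and 80 genes and no member.

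In astrocytes the 2 members with the smallest p were Sc5d and Hmgcs1. Sc5d, a sterol desaturase, ran from 137 over 164 to 213 CPM in 9 burn mice and from 159 over 191 to 208 CPM in 8 sham mice (log2FC -0.20 ± 0.11, p.adj = 0.52). Hmgcs1, the HMG-CoA synthase, ran from 403 over 510 to 624 CPM in burn and from 419 over 580 to 746 CPM in sham mice (-0.22 ± 0.12, p.adj = 0.54). The groups overlapped for both genes, and without mouse 8 the log2FC of Hmgcs1 was -0.13. In batch 3 alone it was -0.02 for Hmgcs1 and -0.11 for Sc5d. The log2FC was negative for 27 of 32 members, with a median of -0.10 against 0.05 for all genes. In batch 3 alone it was negative for 18 of 32, with a median of -0.01, and without mouse 8 for 20 of 32, with a median of -0.04. Mouse 8 was the only sham mouse of batch 1 here. Without it, the 3 burn mice of batch 1 did not enter the difference either. The summed astrocyte markers were at 37501 ± 3153 CPM in burn and 41062 ± 5256 CPM in sham mice, and their part in these signs was not tested. The 95% interval of the log2FC lay within 1 of 0 in either direction for 31 of 32 members, all but Fdps, and within 0.5 for 30.

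In CaMKII positive cells the smallest p belonged to Scap and Npc2. The Scap levels of the 4 burn mice were 117, 87.0, 89.7 and 84.0 CPM, and the 6 sham mice ran from 88.7 over 106 to 166 CPM (log2FC -0.28 ± 0.14, p.adj = 1.00). The Npc2 levels of the burn mice were 77.5, 210, 100.03 and 105 CPM, and the sham mice ran from 66.6 over 86.3 to 124 CPM (0.43 ± 0.26, p.adj = 1.00). A single burn mouse, mouse 20, stood above all sham mice for Npc2, and without it the log2FC was 0.07. The library of mouse 20 also had the highest Abcg1 level of the 10 CaMKII positive libraries, 95.9 CPM against 34.2 to 69.5 CPM, and the highest summed microglia markers, 1186 CPM against 220 to 902 CPM. The part of microglia in its Npc2 level was not tested. The interval of 30 of 32 members lay within 1 of 0, all but Fdps and Pmvk, and that of 9 within 0.5. Among the 32 members, 23 had a positive log2FC, as had 51.8% of all genes, with a median of 0.11 against 0.02 for all genes. In batch 3 alone, without mouse 2 or without mouse 8 it was positive for 16. Mice 2 and 8 were the whole of batch 1 here. Without either, the batch term takes up the other, so these settings all rest on the batch 3 libraries.

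In double-positive cells Srebf1 had the smallest p. It ran from 39.2 over 54.2 to 68.8 CPM in 9 burn mice and from 31.2 over 40.3 to 58.8 CPM in 7 sham mice, with overlap (log2FC 0.28 ± 0.11, 95% interval 0.05 to 0.50, p.adj = 0.71). Tm7sf2 ran from 7.08 over 9.26 to 9.62 CPM in burn and from 4.24 over 6.05 to 10.7 CPM in sham mice (0.40 ± 0.21, p.adj = 0.74). The sham mice spanned the whole range of the burn mice for Tm7sf2. Batch 1 held no sham mouse here, so with batch in the model its 3 burn mice did not enter the difference. With all deposited libraries, the very small one of sham mouse 8 included, the log2FC of Srebf1 was 0.61. The interval lay within 1 of 0 for 30 of 32 members, all but Fdps and Nr1h3, and within 0.5 for 21.

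In microglia the smallest p belonged to Pmvk and Abca1. Pmvk, the phosphomevalonate kinase, ran from 3.29 over 6.02 to 10.9 CPM in 8 burn mice and from 3.79 over 4.76 to 5.54 CPM in 7 sham mice (log2FC 0.44 ± 0.24, p.adj = 0.71). Abca1 ran from 883 over 1097 to 1362 CPM in burn and from 984 over 1115 to 1503 CPM in sham mice (-0.15 ± 0.09, p.adj = 0.75). Both genes overlapped between the groups. Batch 2 held 1 sham mouse and no burn mouse here, so with batch in the model that mouse did not enter the difference. The interval lay within 1 of 0 for 29 of 32 members, all but Fdps, Nr1h3 and Sqle, and within 0.5 for 20. The summed level of the 11 sterol genes was 122 ± 4.51 CPM in burn and 123 ± 7.13 CPM in sham mice (SD).

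**Figure D5:**
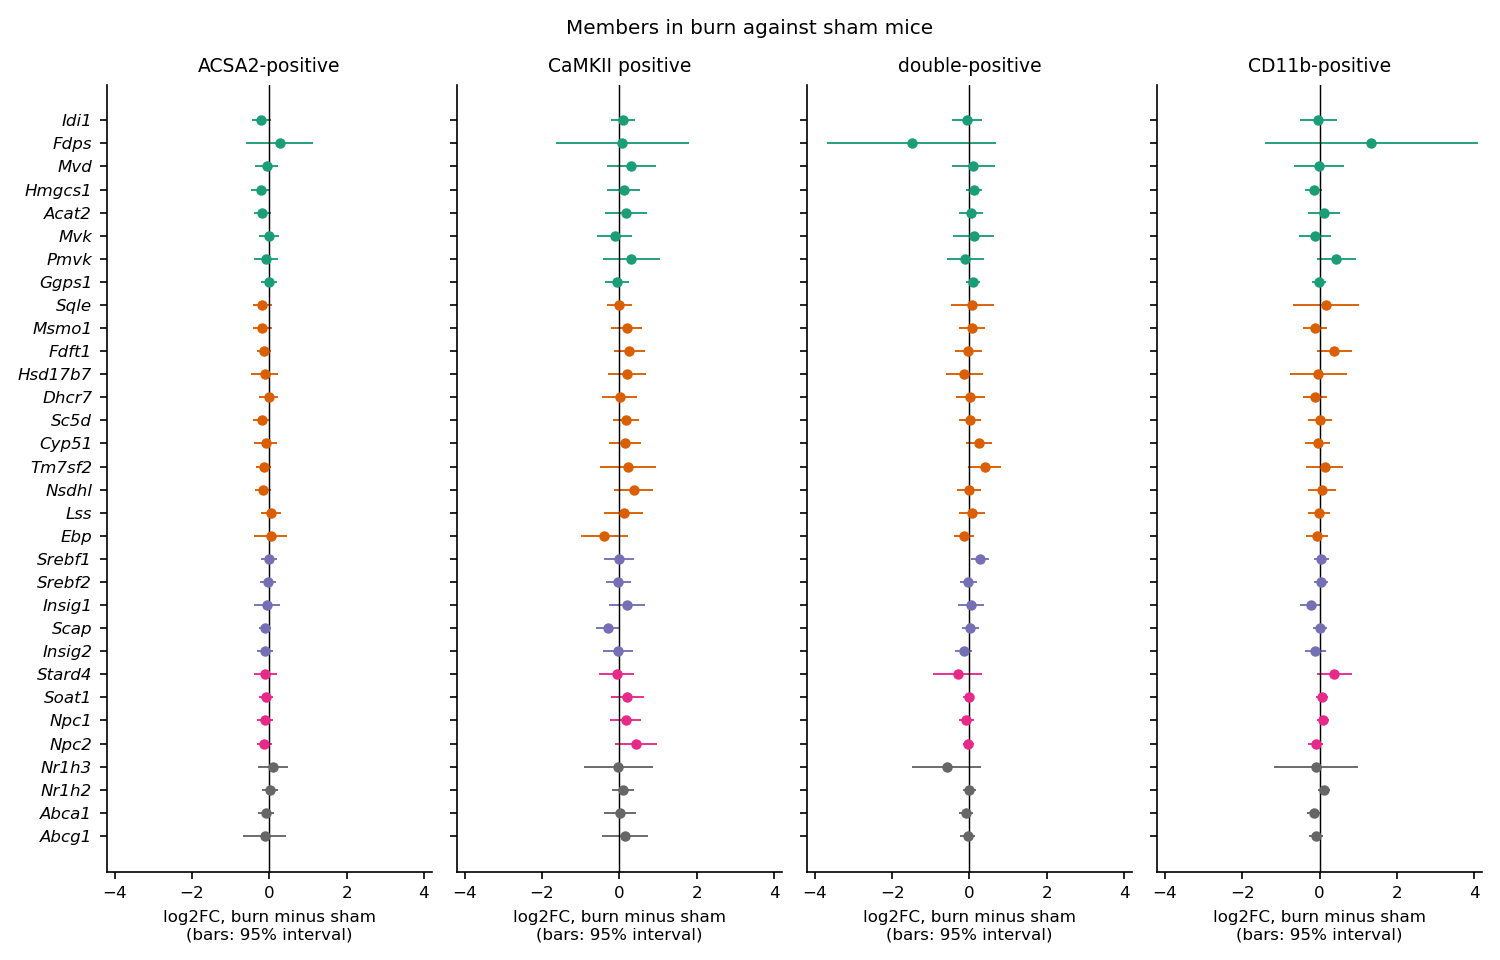
log2FC of the 32 genes in burn minus sham mice in each population, with bars for the 95% interval and colours for the role of the gene. No gene was called, the interval of Srebf1 in double-positive cells alone leaves out 0, and the intervals of Fdps are the widest.

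Whether the difference between burn and sham itself differed between populations was tested by the interaction. No member was called between astrocytes and microglia (0.00% of 33150 genes) or between CaMKII positive and double-positive cells (0.0362% of genes, 12 in number and 0 with mouse as a replicate block). Without adjustment, 2 of 32 members had a p under 0.05 between astrocytes and microglia by the edgeR test, Fdft1 (-0.56, p.adj = 0.35) and Pmvk (-0.56, p.adj = 0.50), as had 3156 of the 33150 genes. Between the other pair 0 members and 2696 genes had one. DESeq2 called no member in either interaction.

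Batch 3 was also contrasted with batches 1 and 2, with treatment in the model. CaMKII positive cells had no library in batch 2. Their contrast was with batch 1 alone, which held 1 burn and 1 sham library. No member was called in the 4 populations, against 0.00% of genes in CaMKII positive, 1.12% in double-positive, 1.03% in ACSA2-positive and 0.399% in CD11b-positive libraries. By the p.adj alone, 8 members were lower in batch 3 in double-positive libraries, against 3.96% of genes. They included 4 of the 5 genes of SREBP control, Srebf1 (log2FC -0.44), Srebf2 (-0.41), Scap (-0.37) and Insig2 (-0.43), with Npc1 (-0.40), Soat1 (-0.24), Abcg1 (-0.39) and Ebp (-0.47). In microglia 3 were lower, against 0.916% of genes: Abcg1 (-0.45), Srebf1 (-0.48) and Abca1 (-0.42). Srebf1 is also the member with the smallest p for burn against sham in double-positive libraries, where its log2FC was 0.28 ± 0.11 in the same fit.

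A further 33 genes of sterol and fatty acid metabolism were counted in the same fits. Between astrocytes and microglia, 4 of 9 genes of oxysterol and ester turnover were called higher in astrocytes and 4 lower, 7 and 3 of 13 genes of other uptake and transport, and 8 and 0 of 11 SREBP proteases and genes of fatty acid synthesis. Of all genes tested 30.4% were called higher and 20.8% lower. Cyp46a1, the 24-hydroxylase through which the brain removes cholesterol, was at 72.1 ± 12.4 CPM in astrocytes and 3.34 ± 1.18 CPM in microglia (log2FC 4.50 ± 0.20), whereas Cyp27a1, the 27-hydroxylase, was at 4.75 ± 2.21 and 49.3 ± 6.36 CPM (-3.38 ± 0.17). Mylip, a ligase for lipoprotein receptors induced by LXR, was at 7.46 ± 2.78 and 567 ± 63.3 CPM (-6.19 ± 0.15), and Stard3, a late endosomal sterol carrier, at 26.6 ± 3.16 and 134 ± 13.1 CPM (-2.27 ± 0.08). Fasn, the fatty acid synthase, was at 1318 ± 160 and 73.8 ± 13.0 CPM (4.23 ± 0.09), and Scd2, a stearoyl-CoA desaturase, was higher in astrocytes as well (4.95 ± 0.13).

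Between CaMKII positive and astrocyte libraries, 5 of these 33 genes were called higher (12.4% of all genes) and 4 lower (3.89%), with Cyp27a1 (log2FC 1.86 ± 0.18) and Mylip (2.10 ± 0.14) among the higher and Cyp46a1 (-1.13 ± 0.21) among the lower. Between double-positive and microglia libraries 5 were called higher (5.57% of all genes) and 0 lower (1.25%), and none of the 6 named genes was among them. No gene of the 3 lists was called between burn and sham in any population, or in the interactions.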

How the data were processed

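RNA-seq was done on 63 libraries of 4 sorted populations of mouse cortex. The authors trimmed the reads with fastp, aligned them with STAR, counted them on Ensembl genes and deposited 1 table of raw counts per cell type, without normalisation. The build is named both GRCm39 and mm10 in the sources used here, and whether counting used the strand is not given in them. The authors also deposited tables of variance-stabilised values made with DESeq2, which were not used here. Column names gave the sample of every column, and 0 columns were left unused. Batches and the reasons for leaving out 5 libraries are those of the study's supplement. The members and lists were chosen with earlier results of these data known. A further marker of microglia is not reported here.

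Counts were tested as deposited with edgeR 4.0.16 in R 4.3.3 (quasi-likelihood, TMM, genes with at least 10 counts in total, Benjamini-Hochberg over all genes tested). Burn against sham and batch were fitted per cell type with batch and treatment, and contrasts of cell types, averaged over burn and sham, and interactions in 1 fit of 58 libraries with a term for each of the 8 groups and for batch. The batch term of that fit was shared by all cell types. The double-positive burn mice of batch 1 thus entered its interaction, though not burn against sham. A call needed p.adj to be 0.05 or less and the log2FC to be 1 or more in size. SE is the absolute log2FC over the square root of F, and 95% intervals use the t quantile. Values within a mouse compare CPM of its libraries. Library totals limit precision, and floors of 3 counts cover counting error only.

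Libraries of 1 mouse carry its number in every cell type, as the titles and the supplement show, and so are paired. The median correlation of their deviations from the group means, over 20611 genes, was 0.0584 in ACSA2-positive and CD11b-positive, 0.0236 in CaMKII positive and ACSA2-positive, and 0.0652 in double-positive and CD11b-positive libraries, and mouse as a replicate block was an alternative. Burn and sham share no mouse.

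Named genes were, in each contrast of cell types, the 3 called members with the largest log2FC in each direction, in burn against sham the 2 with the smallest p, and for the other lists the 2 with the smallest p between astrocytes and microglia. All other members are given by role. Alternatives were all deposited libraries, DESeq2 1.42.0, its size factors, library size only, filterByExpr or no filter, no batch term, batch 3 alone, sham mice alone, no minimum fold change, mouse as block, and each mouse left out. The fits were tested on simulated data: all 200 genes changed 4-fold were called, with 8 others in burn against sham of microglia and 1 other between astrocytes and microglia. The changed genes were well counted, and all genes had the same dispersion and no batch effect. The second test fitted these 2 cell types only. Recovery of genes with low counts, or in the fit of all libraries, was not tested. Exon overlaps and shared 50-base windows come from GENCODE M21 (GRCm38), promoters from RefSeq (GRCm38.p6). Figures used matplotlib 3.10.9, and tables pandas 2.3.3 with numpy 2.4.6 under Python 3.11.15.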

Additional observations from a re-analysis of the deposited data

Results flagged for a closer look

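The summed levels of each role and the levels of genes named for burn against sham were checked in each group. Of these 56 sets, 2 held a library far from the others by Dixon's criterion, which chance gives in about 1 in 20. Both were sets of a named gene, which were the smaller part of the 56. The CaMKII positive library of sham mouse 8 had 166 CPM of Scap, against 88.7 to 114 CPM in the other 5 sham mice. The double-positive library of burn mouse 21 had 7.08 CPM of Tm7sf2, against 8.39 to 9.62 CPM in the other 8 burn mice. Both genes are those named for burn against sham in that population, neither of which was called, and Scap in mouse 8 lies on the sham side of a negative log2FC.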

How the results depend on the processing

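Of 313 recounts of the members called, 301 stayed within 1.5 times the reported count. The 25 calls between astrocytes and microglia stayed at 25 with each mouse left out, and rose to 31 only without a minimum fold change. Of the 4 calls between CaMKII positive and astrocyte libraries all but Abcg1 were near the fold threshold: 1 was left with all deposited libraries, with DESeq2, with its size factors and with library size only, 8 were made in sham mice alone and 26 without a minimum fold change, and 1 to 4 with each mouse left out, with 1 without mouse 8 and 2 without mouse 17. Between double-positive libraries and microglia, 8 members passed without a minimum fold change, and 1 with each mouse left out. For batch 3 there were 8 members in double-positive libraries and 3 in microglia without a minimum fold change, and 1 in microglia with DESeq2, Sqle, at a p.adj near the threshold. Burn against sham and the interactions gave 0 members under every alternative run. With mouse as a replicate block, the contrasts of cell types gave 25, 4 and 1 members and the interactions 0, and each of these members was also called without it. No paired analysis was possible because burn and sham share no mouse, for burn against sham and for batch. Of 998 refits of named members, 973 kept direction and side of the threshold, 25 lost the call, all of Tm7sf2, Srebf1 or Soat1 between CaMKII positive and astrocyte libraries, and 0 changed direction. The cause was not tested.

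Over all genes, calls between double-positive libraries and microglia numbered 2262, and 1005 in batch 3 alone, 568 in sham mice alone and 1429 with the block. Burn against sham gave 0 genes in each population, and DESeq2 gave 27 in astrocytes, 3 in CaMKII positive, 2 in double-positive and 80 in microglia libraries; all deposited libraries gave 136 in double-positive libraries, where the library of mouse 8 is very small, and no filter on low counts gave 14 there and 4 in astrocytes. The interaction between astrocytes and microglia gave 0 genes, 278 with DESeq2, 33 with all deposited libraries, 8 in batch 3 alone, 6 with the size factors of DESeq2, and 0 to 41 with each mouse left out, with 41 without mouse 8. That between CaMKII positive and double-positive cells gave 12 genes, 157 with DESeq2, 0 with the block, 0 in batch 3 alone, and 2 to 17 with each mouse left out, with 2 without mouse 17 or mouse 19. For batch 3, DESeq2 gave 619 genes in astrocytes against 288, 424 in microglia against 104 and 118 in CaMKII positive libraries against 0. With each mouse left out, the batch contrast gave 60 to 532 genes in astrocytes, 54 to 217 in microglia, 0 to 61 in CaMKII positive and 97 to 356 in double-positive libraries. Fdps was at or near the floor in CD11b-positive and double-positive libraries. The parts of depth and of sequence shared with other genes in this were not tested.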
